A study of Mus musculus with 3 samples.

Results

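The genes described here are *Ngfr*, *Sox10*, *Foxd3*, *Fabp7*, *S100b* and *Mbp*, 6 genes known from Schwann cells and neural crest glia, out of 18193 genes with a probe set on the array. All 18 probe sets that name them were taken, of 45037 probe sets other than controls, and the rule that lists them names no measured value. The genes were, however, chosen with earlier results of these data known, so their counts beside all genes are a description alone. Palatal tissue of ICR mouse fetuses, labelled female, was hybridized to 3 Affymetrix Mouse Genome GeneChip arrays. Maxillae were removed at E14 and kept in suspension culture, and tissue was taken before fusion (5 h), during fusion (24 h) and after fusion (60 h), with 1 array for each stage. No genotype or agent differed between the stages. The stage, the hours in culture and the piece dissected change together and cannot be told apart, since the first array holds tissue of the shelf edge and the later arrays hold midline tissue. The methods give several tissue samples for each stage, extracted one by one, and do not say whether the array of a stage holds one of these RNAs or several combined.

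Schwann cells and their precursors arise from the neural crest and travel into the face along the growing nerves. The transcription factor SOX10 is needed for this lineage and switches on many of its genes, and FOXD3 keeps crest cells and early glial precursors in an immature state. NGFR, the p75 neurotrophin receptor, and the fatty acid binding protein FABP7 mark crest-derived precursors, whereas the calcium-binding protein S100B and myelin basic protein, encoded by *Mbp*, appear as Schwann cells mature. None of these genes belongs to glia alone. In development, *Ngfr* is also expressed by mesenchymal cells, *Sox10* by melanocyte precursors and some gland epithelium, and *S100b* by cartilage, and the *Mbp* locus also encodes golli proteins that are made in immune cells.

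Each value is a MAS5 signal, a background-corrected intensity on a linear scale, after scaling that gave all 3 arrays the same trimmed mean. A floor for each array was set from 81 probe sets of olfactory, vomeronasal and bitter taste receptors and lay at 19.4 before, 13.3 during and 14.7 after fusion. A signal under the floor was raised to it before a ratio was taken, so that a ratio with 1 side under the floor is a bound, and a ratio with both sides under it is not given. With 1 array for each stage there is no replicate, and stages cannot be tested against each other. The one measure of spread, which holds no variation between animals, dissections or arrays, comes from probe sets of the same gene. For mean signals under 100 the SD of their log2 ratios was 0.46 between the arrays before and during fusion, 0.54 between those before and after it and 0.54 between the later 2, and for signals of 100 or more it was 0.25, 0.36 and 0.32.

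In the tissue during fusion, *Ngfr* and *Foxd3* were over 2-fold lower than before fusion, and none of the 6 genes was over 2-fold higher. After fusion *Ngfr* and *Sox10* were over 2-fold lower than before fusion by their brightest probe set, and again none was higher. Between the arrays during and after fusion, *Fabp7* was over 2-fold lower. *S100b* and *Mbp* stayed within 2-fold in all 3 comparisons when each gene was read by its brightest probe set. A lower signal in these pieces of tissue cannot tell fewer cells of a type from less RNA per cell.

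Across all genes with a signal over the floor on either array of a pair, 3.19% were over 2-fold lower and 5.45% over 2-fold higher during than before fusion, against 2 and 0 of the 6. After fusion against before fusion, 9.58% of all genes were lower and 12.6% higher, against 2 and 0 of the 6. For after over during fusion, 5.08% were lower and 8.73% higher, against 1 and 0 of the 6. The median log2 ratio of the 6 genes was -0.26 and -0.54 against the array before fusion, during and after it, and -0.15 between the later 2 arrays, where the medians over all genes were -0.05, -0.09 and -0.03. With 6 genes, 1 gene more or less moves each of these shares widely.

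**Figure D1:**
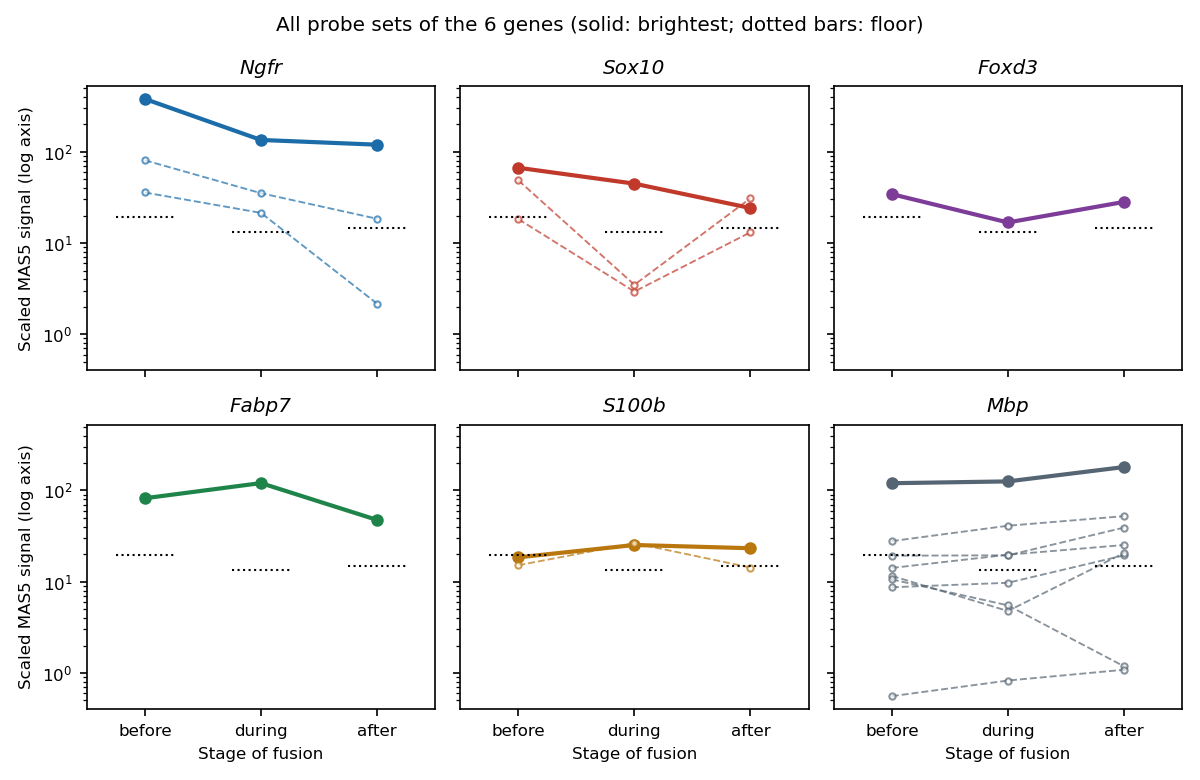
Scaled MAS5 signal (log axis) of all 18 probe sets of the 6 genes at each stage of fusion (1 array each); solid lines show the brightest probe set of each gene, dashed lines its other probe sets, and dotted bars the floor of each array. The 3 *Ngfr* probe sets run downward together, while the *Sox10* probe sets part during fusion.

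*Ngfr*, the p75 receptor for neurotrophins, showed the most even picture. Its brightest probe set (1454903_at) gave 379 before fusion, 135 during it and 119.5 after it. The signal was thus highest before fusion, 2.81-fold above that during fusion and 3.17-fold above that after fusion. On the log2 scale these are ratios of -1.49 and -1.67 to the array before fusion, beyond the SD given above for this signal. Only 0.726% of 12124 genes above the floor on both arrays had a lower ratio during fusion, and 1.92% of 12007 after fusion. Between the arrays during and after fusion the ratio was 0.887, which is within that spread.

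The second *Ngfr* probe set (1450177_at) measured 80.7 before fusion, 35.2 during it and 18.4 after it. Against its first value it was 2.29-fold lower during fusion and 4.38-fold lower after it. The third (1421241_at) had a signal of 35.8 before and 21.4 during fusion and lay under the floor after fusion at 2.17. Its ratio was 0.598 during fusion, and after fusion it was at least 2.43-fold lower than before. All 3 probe sets thus had their highest signal before fusion and their lowest after it. They differ in the step from during to after fusion, where the log2 ratios were -0.17, -0.93 and a bound of -0.54.

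*Sox10*, the transcription factor gene of crest glia, had a lower signal after fusion, and its probe sets did not share one course. The brightest (1451689_a_at) read 66.8 before fusion, 44.7 during it and 24.2 after it. Its ratio was 0.670 during fusion, and it was 2.76-fold lower after fusion than before. The log2 ratio of -1.47 after fusion is well beyond the SD for this signal, whereas that of -0.58 during fusion is only slightly larger than it. The other probe set above the floor (1424985_a_at) gave 48.6 before fusion, 3.49 during it and 31.0 after it. It was under the floor during fusion, at least 3.65-fold lower than before, and at least 2.33-fold higher after than during fusion. After fusion it was 1.57-fold lower than before, a log2 ratio of -0.65, which is within 2-fold. The third (1425369_a_at) was under the floor on all 3 arrays, with signals of 18.3, 2.94 and 13.1, and has no ratio.

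Both *Sox10* probe sets above the floor were therefore highest before fusion, but they put the lowest point at different stages. For after over during fusion their log2 ratios were -0.89 and 1.22, of opposite sign. The median over both was 0.16 for this comparison, -1.22 for during over before fusion and -1.06 for after over before fusion. The signal of *Sox10* during fusion, then, is not settled by these probe sets. All 3 carry the suffix that marks probes shared by several transcripts of the gene, and which transcripts they read is not given in the sources used here.

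*Foxd3*, the forkhead gene of immature crest cells, has 1 probe set (1422210_at), which read 34.3 before fusion, 16.8 during it and 28.2 after it. All 3 signals lay less than 2-fold over the floor of their array. It was 2.04-fold lower during fusion than before, and its ratio was 0.822 after fusion. The log2 ratio during fusion, -1.03, sits at the 2-fold limit. It was -0.75 with the signals as deposited and -0.21 with a floor at the median signal of each array. After fusion *Foxd3* stood 1.68-fold over its signal during fusion.

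*Fabp7*, the brain-type fatty acid binding protein gene of glial precursors, had its highest signal during fusion. Its single probe set (1450779_at) measured 82.2 before fusion, 120.4 during it and 47.5 after it. The ratio to the array before fusion was 1.47 during and 0.579 after fusion, and both lie within 2-fold. Against the array during fusion it was 2.53-fold lower after fusion, a log2 ratio of -1.34. Of 12789 genes above the floor on both of these arrays, 1.70% had a lower ratio. *Fabp7* was the only one of the 6 genes over 2-fold lower in this comparison, and with the arrays scaled on the hybridization controls *Sox10* passed 2-fold too.

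*S100b*, a calcium-binding protein gene of mature glia and of cartilage, was at or near the floor on each array. Its brightest probe set (1434342_at) had a signal of 18.5 before, under the floor, 25.3 during and 23.3 after fusion. Against the floor before fusion it was at least 1.30-fold higher during fusion and at least 1.20-fold higher after it. The second (1419383_at) read 15.2 before fusion, 26.4 during it and 14.3 after it and passed the floor during fusion alone, where it was at least 1.36-fold higher than before. Both probe sets had their highest signal during fusion under the main scaling. For the brightest, the log2 ratio for after over during fusion was -0.12 and ran from -0.31 to 0.03 over 6 scalings. Which of these 2 stages was highest is therefore open for it. The log2 ratio of the brightest for after over before fusion ran from -0.11 to 0.44 over 6 scalings, so its direction is open.

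*Mbp*, which encodes myelin basic protein and the golli proteins, had its highest signal after fusion. The brightest of its 8 probe sets (1425264_s_at) gave 120.1 before fusion, 125.6 during it and 180.5 after it. Its log2 ratio to the array before fusion was 0.07 during and 0.59 after fusion. The suffix of this probe set marks probes that other transcripts can share. The next (1425263_a_at) measured 27.9 before fusion, 41.0 during it and 52.3 after it, ratios of 1.47 and 1.88. Another (1433532_a_at) read 19.3 before fusion, 19.5 during it and 39.2 after it, and it was at least 2.02-fold higher after than before fusion and 2.01-fold higher after than during fusion. It was the only probe set among the 18 that was over 2-fold higher after fusion than before it.

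Of the 8 *Mbp* probe sets, 6 passed the floor at some stage and 2 stayed under it on all 3 arrays. Those 6 had log2 ratios or bounds from 0.00 to 1.01 for after over before fusion and from 0.35 to 1.01 for after over during fusion. Among them, 1456228_x_at and 1451961_a_at passed the floor after fusion alone, so that being highest there followed from the choice by the floor. The others were highest after fusion as well, in contrast to *Ngfr*, whose 3 probe sets were lowest there. Of the 2 under the floor throughout, 1454651_x_at ran downward, with signals of 10.6, 5.51 and 1.18, and 1436201_x_at read 0.557, 0.826 and 1.08. For after over before fusion, 3 of the 6 had a ratio larger than the SD for their signal, the 3 probe sets given above. Between the arrays before and during fusion, the brightest gave log2 ratios from -0.21 to 0.35 over 6 scalings, so that no direction can be read.

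**Figure D2:**
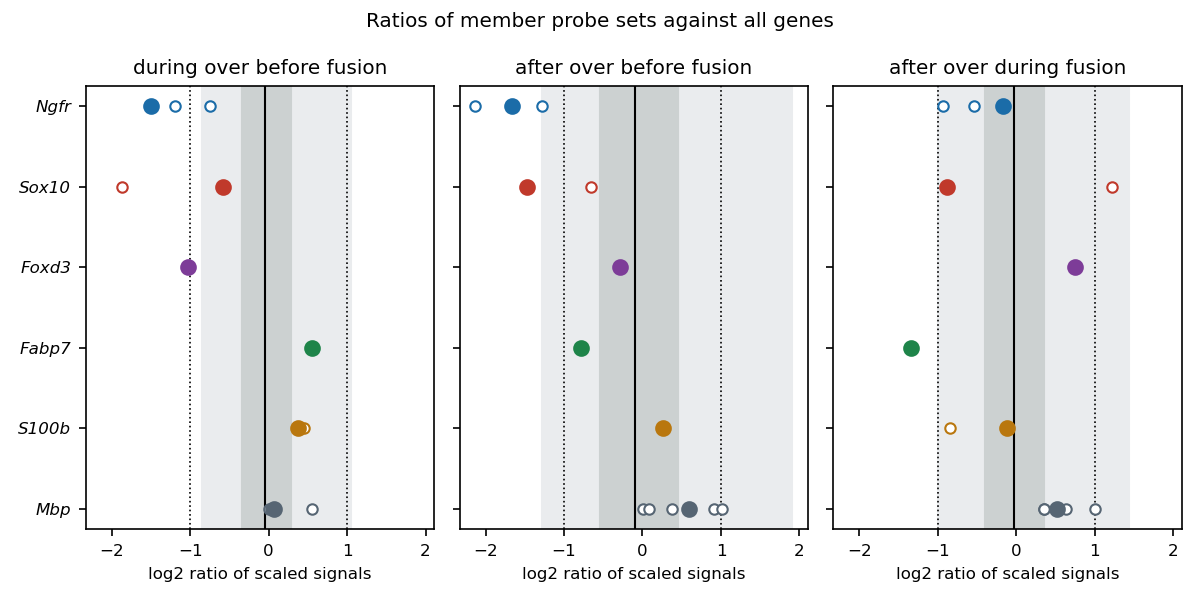
Log2 ratios of the member probe sets in the 3 comparisons; filled circles show the brightest probe set of each gene and open circles its others, bounds included, dark gray the middle 50% and light gray the middle 90% of all genes, and dotted lines 2-fold. The brightest *Ngfr* probe set lies under the light band against the array before fusion at both stages. *Foxd3* lies under it for during over before, the brightest *Sox10* probe set for after over before and *Fabp7* for after over during fusion.

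Counted by probe sets, 13 of the 18 had a ratio for during over before fusion, and 4 were over 2-fold lower and none higher, where 3.22% of all probe sets were lower and 4.72% higher. Of these 4, *Ngfr* had 2 and *Sox10* and *Foxd3* 1 each. After fusion against before, 14 had a ratio, 4 were lower and 1 was higher, where 10.1% of all were lower and 9.69% higher. The 4 were all 3 probe sets of *Ngfr* and 1 of *Sox10*, and the higher one was that of *Mbp*. For after over during fusion, 15 had a ratio, 1 was lower and 2 were higher, where 7.08% of all were lower and 6.61% higher. Probe sets of one gene share their target and are not independent of each other.

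Of the 6 genes, 4 have an entry in the RefSeq promoter table (GRCm38.p6), which does not list *Sox10*. The 250 bases before the start site are shown for the 3 listed genes that passed 2-fold in a comparison. Capitals mark the letters GGGCGG (the GC box), CCAAT (the CCAAT box), CACGTG (an E-box), ACAAAG and ACAATG (words that SOX proteins can bind) on either strand.
*Ngfr*, chr11:95587699-95587948, minus strand: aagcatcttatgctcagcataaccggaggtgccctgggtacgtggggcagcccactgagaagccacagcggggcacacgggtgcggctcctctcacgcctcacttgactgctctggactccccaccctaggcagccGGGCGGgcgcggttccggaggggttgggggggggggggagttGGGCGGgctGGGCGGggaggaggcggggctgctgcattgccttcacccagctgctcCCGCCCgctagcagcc
*Foxd3*, chr4:99656049-99656298, plus strand: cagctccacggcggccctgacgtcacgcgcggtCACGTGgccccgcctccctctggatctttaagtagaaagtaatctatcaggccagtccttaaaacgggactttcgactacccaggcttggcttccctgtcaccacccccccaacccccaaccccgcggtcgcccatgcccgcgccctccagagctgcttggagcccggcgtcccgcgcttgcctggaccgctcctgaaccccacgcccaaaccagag
*Fabp7*, chr10:57784673-57784922, plus strand: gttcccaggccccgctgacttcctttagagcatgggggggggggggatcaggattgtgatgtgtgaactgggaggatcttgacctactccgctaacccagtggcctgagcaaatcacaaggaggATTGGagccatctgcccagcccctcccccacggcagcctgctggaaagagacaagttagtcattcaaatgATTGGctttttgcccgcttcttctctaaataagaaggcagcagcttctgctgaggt

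The 3 windows differ in composition. That of *Ngfr* has 70.4% G and C and holds GGGCGG 4 times, 3 on the sense strand and 1 on the other. That of *Foxd3* has 65.6% G and C and holds CACGTG once, and that of *Fabp7* has 54.8% and holds CCAAT 2 times, both on the other strand. Over 32851 windows of this length the median was 52.4% G and C, and 32.7% held GGGCGG, 33.9% CCAAT, 6.02% CACGTG, 16.5% ACAAAG and 10.7% ACAATG. Neither SOX word is in the 3 windows. A match or its absence describes these letters and says nothing of the factors.

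The wider Schwann lineage list holds 39 further genes, of which 35 were analysed here and 31 passed the floor at some stage. During fusion 2 were over 2-fold higher and 4 lower than before, of 30 with a ratio, where 5.45% and 3.19% of all genes were. After fusion 4 were higher and 2 lower, of 30, where 12.6% and 9.58% of all genes were. The median log2 ratio of the list was -0.23 during fusion, below the -0.05 of all genes, and -0.02 after fusion, against -0.09. The neuregulin receptor gene *Erbb3*, which epithelium also expresses, gave 480 before fusion, 418 during it and 413 after it. *Cdh19*, a cadherin gene of Schwann precursors, was under the floor before fusion and had signals of 22.2 and 19.1 during and after it, and *Egr2*, which drives myelination, went from under the floor to 20.8 and 22.2. Thus *Cdh19* and *Egr2* were low or under the floor at every stage.

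The members of this list with the highest ratios after fusion are also expressed by epithelium or other cells. *Mal*, a gene of myelin and of apical epithelial membranes, measured 38.2 before fusion, 396 during it and 800 after it, 20.9-fold higher after than before. *Plekhb1* was 3.99-fold, the small heat shock gene *Cryab* 3.93-fold and the integrin gene *Itgb4* 2.09-fold higher after fusion. At the low end stood the cadherin gene *Cdh6*, 3.02-fold lower, and the integrin gene *Itga4*, 2.89-fold lower. *Ttyh1* was under the floor after fusion with a bound of 1.96-fold lower, and *Metrn* was 1.89-fold lower. *Ednrb*, the endothelin receptor gene of crest cells, read 290.2 before fusion, 96.1 during it and 327 after it, lowest during fusion; it was named after its values were seen.

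Genes that act with *Ngfr* were read beside it. Of 11 other neurotrophin signaling genes with a ratio, 1 was over 2-fold higher and none lower during fusion, with a median log2 ratio of 0.00, and 1 was higher and none lower after fusion, with a median of -0.12. Among all genes, 5.45% were higher and 3.19% lower during fusion, and 12.6% and 9.58% after it. Their summed signal was 6384 before, 5138 during and 4808 after fusion. *Ntrk3*, the receptor gene for neurotrophin-3, gave 32.7 before fusion, 72.5 during it and 59.1 after it and was 2.22-fold higher during fusion. *Rtn4r*, which encodes a Nogo receptor that pairs with p75, was 2.11-fold higher after fusion. *Bex3* and *Maged1*, whose proteins bind the inner part of p75, had ratios of 0.706 and 0.668 after fusion. Of 8 neuregulin signaling genes, 6 lay above the floor and none passed 2-fold in any comparison. The receptor genes *Erbb2* and *Egfr* had ratios of 1.11 and 0.713 after fusion. *Nrg1*, the axonal signal that Schwann cells need, was under the floor before and after fusion and read 19.5 during it.

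The relatives of the other members were taken in the same way. *Sox9*, which shares the SoxE group with *Sox10*, measured 178 before fusion, 116 during it and 87.0 after it and was 2.05-fold lower after fusion. *Sox2* had a ratio of 0.713 after fusion, and *Sox8* was under the floor on each array. *Foxd1* read 313 before fusion, 137 during it and 54.9 after it and was 2.29-fold and 5.70-fold lower, and *Foxd2* had ratios of 0.722 and 0.607. The 2 forkhead relatives above the floor were thus lowest after fusion, whereas *Foxd3* was lowest during fusion. In the fatty acid binding family, *Fabp3* was 3.60-fold higher during and 4.12-fold higher after fusion, and *Fabp4*, the adipocyte form, had no signal over the floor before fusion and was higher by at least 2.25-fold during and at least 5.49-fold after it. *Fabp5*, the epidermal form, had ratios of 0.948 and 1.09. *Fabp12* passed its floor only after fusion, with a signal of 14.9. None of these relatives shared the course of *Fabp7*, high during and low after fusion.

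**Figure D3:**
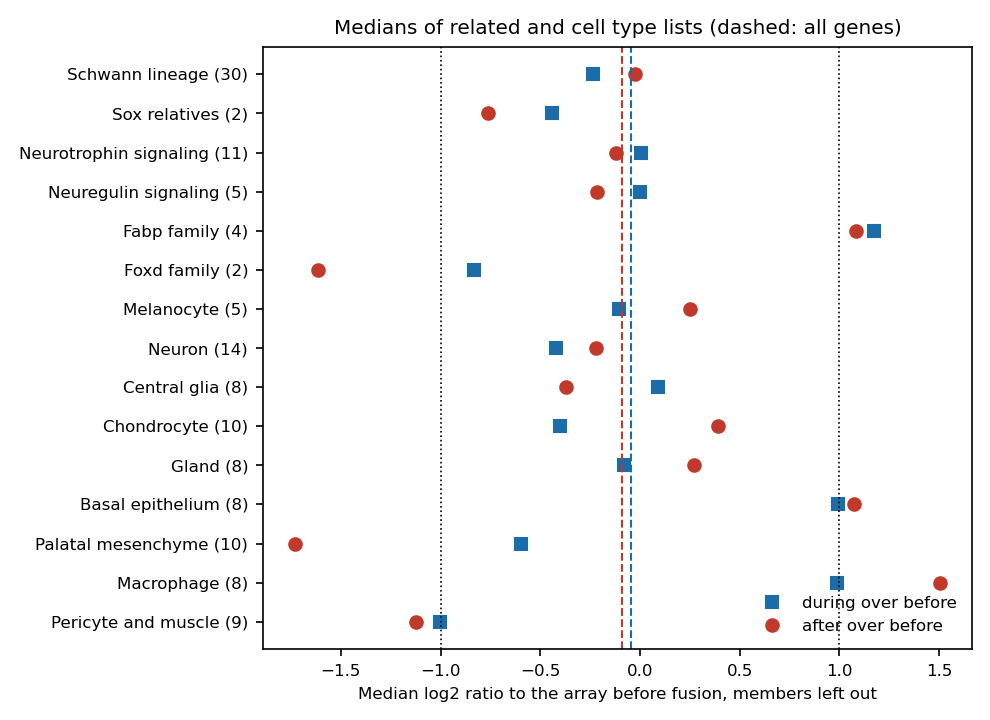
Median log2 ratio to the array before fusion of each related or cell type list with the 6 genes left out; squares stand for the array during fusion, circles for that after it, the number by each name counts its genes with a ratio after fusion, dashed lines mark the medians of all genes and dotted lines 2-fold. Palatal mesenchyme genes lie lowest after fusion and macrophage genes highest.

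Genes of other cells that can express the members were read from the same arrays. The counts of each of these lists stand beside the shares over all genes. These were 5.45% over 2-fold higher and 3.19% lower during fusion, and 12.6% and 9.58% after it. Of 10 palatal mesenchyme genes, none was over 2-fold higher, 3 were lower during fusion and 7 were lower after it, and their summed signal was 12517 before, 7134 during and 4393 after fusion. Within it, *Pdgfra* was 1.64-fold and 2.51-fold lower, and *Prrx1* 1.54-fold and 5.23-fold. Of 9 pericyte and muscle genes, 5 were lower during fusion, the muscle genes *Des*, *Myog*, *Myod1*, *Mylpf* and *Myh3*, and 6 after it, those and *Pdgfrb* of pericytes, 2.18-fold lower. Of the other genes, *Acta2* of smooth muscle was 2.40-fold and *Cspg4* of pericytes 1.95-fold higher after fusion, and *Rgs5* of pericytes was 1.56-fold lower. The summed signal of that list was 2193 before, 2212 during and 2365 after fusion. The mesenchymal list was lower at both stages where *Ngfr* was lower, as were the 5 muscle genes, and their part in the result was not tested.

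Of 9 macrophage genes, 8 had a ratio, and of these 3 passed 2-fold upward during fusion and all 8 after it. Their summed signal was 540 before, 1104 during and 2498 after fusion, and *Csf1r*, the receptor gene on which macrophages depend, was 2.81-fold higher after fusion. This list was highest where *Mbp* was highest, and its part in that result was not tested. The 8 basal epithelial genes summed to 7310 before, 14611 during and 16144 after fusion, with 4 over 2-fold higher at each stage. *Krt5* of basal cells was 7.33-fold higher after fusion, and *Trp63*, a key gene of stratified epithelium, had a ratio of 0.613. Of 8 gland genes with a ratio after fusion, 3 were over 2-fold higher and none over 2-fold lower. The 3 were *Ehf*, 4.62-fold, and *Krt7* and *Krt19* of simple epithelium, 5.17-fold and 3.65-fold higher. *Elf5* was 1.83-fold lower, and *Foxc1* and *Kit* had ratios of 1.20 and 1.05. *Aqp5* and *Bhlha15* had bounds of at least 1.22-fold and 1.08-fold higher, and *Smgc* and *Prol1* were under the floor on each array. The part of gland genes in the signal of *Sox10* was not tested.

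Of 12 chondrocyte genes, 2 were over 2-fold higher and 2 lower during fusion, and after it these counts were 3 and 3. *Col2a1*, the main collagen gene of cartilage, gave 429 before fusion, 167 during it and 189.5 after it, and *Col11a2* was at least 10.3-fold higher after fusion. *Acan*, the aggrecan gene of cartilage, was under the floor before fusion and read 52.3 during it and 38.7 after it, highest during fusion. The *S100b* probe sets were highest there too under the main scaling, the brightest by a ratio within its spread. *Acan* was named after its values were seen, and no other gene of the list was highest during fusion. *Col9a1* read 596, 212 and 268 before, during and after fusion, and *Cnmd* 33.1, 23.6 and 61.0. The part of cartilage genes in the signals of *S100b* was not tested. Of 10 melanocyte genes, 6 passed the floor at some stage. The median log2 ratio of the 5 with a ratio after fusion was 0.25, against -0.09 of all genes. *Dct*, *Tyr*, *Tyrp1* and *Oca2* were under the floor on each array. *Mitf*, *Slc45a2* and *Pmel* had ratios of 1.34, 1.19 and 0.763 after fusion, and *Gpnmb*, which macrophages also express, was at least 27.2-fold higher. Of the genes of central glia, *Mog*, *Olig1* and *Olig2* were under the floor on each array. *Aldoc*, *Slc1a3*, *Cldn11* and *Opalin* had ratios of 2.33, 0.806, 0.886 and 0.735 after fusion, with each signal above the floor. *Gfap* was above it before fusion alone, with signals of 25.9, 1.19 and 2.76, and *Aqp4*, which airway epithelium also expresses, was at least 7.06-fold higher after fusion.

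Nerve fibers carry Schwann precursors into the palate, so genes of neurons were set beside the members. Of 15 such genes, 14 passed the floor. During fusion 2 were over 2-fold higher and 3 lower than before, of 13 with a ratio, where 5.45% and 3.19% of all genes were. After fusion 3 were higher and 3 lower, of 14, where 12.6% and 9.58% of all genes were. *Stmn2*, a growth cone gene, measured 35.9 before fusion, 109.5 during it and 278 after it, 7.76-fold higher after than before. *Prph*, the peripherin gene of peripheral neurons, passed the floor only from fusion onward and was at least 4.43-fold higher after than before it. In contrast, *Dcx* of migrating neurons was 2.97-fold lower after fusion, and *Gap43* and *Uchl1* had ratios of 0.747 and 0.516. The neuronal list therefore had no single direction, and neither did the 6 glial genes.

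**Figure D4:**
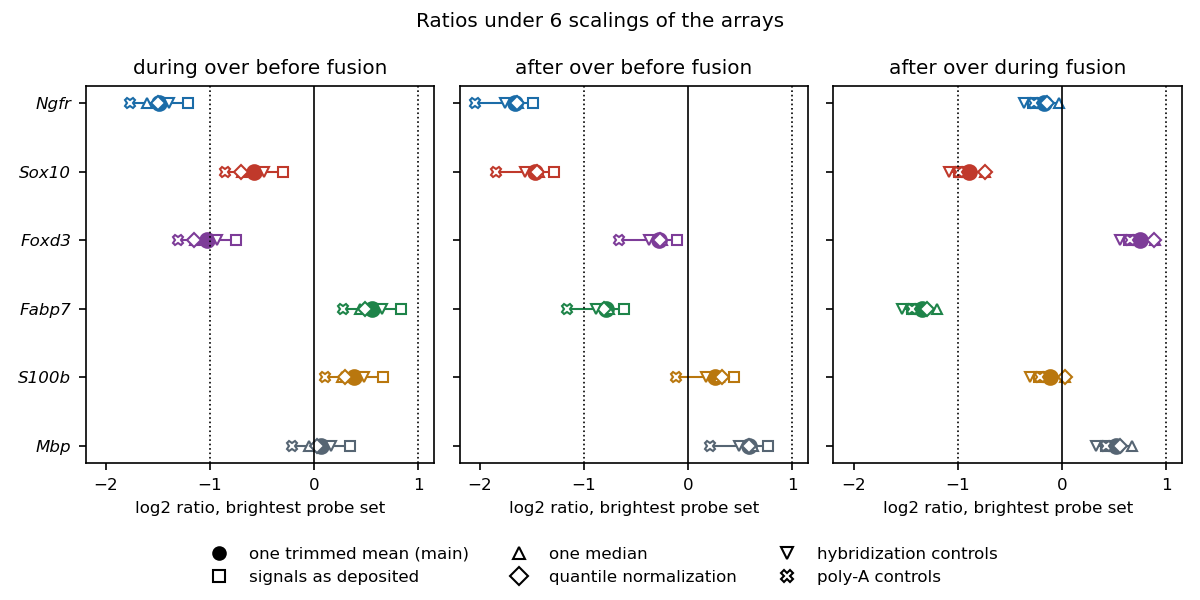
Log2 ratio of the brightest probe set of each member under 6 scalings of the arrays (symbols, filled for the main one) in the 3 comparisons; the solid line marks no difference and dotted lines 2-fold. *Ngfr* stays past 2-fold against the array before fusion under all 6, as do *Sox10* after over before and *Fabp7* after over during fusion, whereas *Foxd3* crosses the line for during over before fusion.

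A scaling can move the ratios between a pair of arrays, so the brightest probe set of each member was read under 6 scalings. *Ngfr* ran from 2.32-fold to 3.41-fold lower during fusion and from 2.81-fold to 4.12-fold lower after fusion. *Sox10* ran from 2.44-fold to 3.59-fold lower after than before fusion, and *Fabp7* from 2.29-fold to 2.89-fold lower after than during fusion. *Foxd3* ran from 1.68-fold to 2.48-fold lower during fusion. *Fabp7* also passed 2-fold for after over before fusion with the poly-A controls, at 2.24-fold lower. *Mbp* stayed above 0 on the log2 scale after fusion against both other stages under each of the 6.

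The courses of the members were compared with those of all genes above the floor on each of the 3 arrays. Likeness was the distance between log2 signals centred on their mean over the 3 arrays. Closest to *Ngfr* were *Add2*, an adducin gene of the membrane skeleton, and *Tek*, the angiopoietin receptor gene of endothelium, at distances of 0.04 and 0.04, and 27 of 11839 other genes lay within 0.25. Closest to *Sox10* were *Gprasp1* and *Fam171a2*, with 341 genes within 0.25. For *Fabp7* they were *Rnf43*, a gene of Wnt feedback, and *Zfp160*, with 101 genes, and for *Foxd3* *Actl7b* and *Gm9112*, with 111. The course of *Mbp* was the most common, with 974 genes within 0.25 and *Cnot6l* and *Psenen* closest. *S100b* was under the floor before fusion and was left out. Between the 5 members themselves the distances ran from 0.68, between *Ngfr* and *Sox10*, to 1.63, between *Ngfr* and *Mbp*. With 3 arrays many genes share a course, so this is a description alone.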

How the data were processed

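Total RNA of palatal tissue was labelled and hybridized by the authors to Affymetrix Mouse Genome GeneChip arrays, 1 for each stage. The deposited values are signal intensities on a linear scale, background-corrected and computed by the authors with the MAS5 algorithm; no scaling target is stated. Depth has no meaning for arrays, and the number of arrays limits the precision.

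Names came from the platform annotation: of 45037 probe sets other than 64 controls, 34945 name 1 gene, 932 several and 9160 none, and 34741 symbols were matched by gene ID to GRCm38.p6, used for names and for the RefSeq promoter table. Each array was multiplied to reach a common mean, taken without the top and bottom 2% of probe sets, by factors of 1.11 before, 0.918 during and 0.986 after fusion. Trimmed means had been 123.6, 150.0 and 139.7. Above the floor, the 95th percentile of 81 receptor probe sets, lay 56.9%, 65.8% and 61.5% of probe sets. The 5′ over 3′ signal of the *Actb* control was 0.718, 0.713 and 0.718. Each gene is read by its brightest probe set on average, and a probe set was counted past 2-fold.

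The members and lists were chosen with earlier results of these data known. Genes beside the members were named by a rule: the largest and smallest ratios and the brightest genes of each list, all relatives above the floor, and the closest courses; not all are printed, and a few listed genes are not reported here. Alternatives were 5 other scalings, no floor (0.1 for a deposited 0), a floor at the median, the mean floor added, the median over probe sets, and thresholds of 1.5-fold and 4-fold. The steps were tested on simulated data. Python 3.11.15, numpy 2.4.6, pandas 2.3.3 and matplotlib 3.10.9 were used.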

Additional observations from a re-analysis of the deposited data

How the results depend on the processing

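The number of the 6 genes over 2-fold lower during than before fusion was 2, and it was 1 (*Ngfr*) with the signals as deposited, with the hybridization controls, with a floor at the median and with the floor added, and 0 at 4-fold. *Foxd3* was the gene lost: its log2 ratio was -0.21 with a floor at the median and -0.62 with the floor added. With the median over probe sets *Sox10* was counted as well, and 3 genes were lower. After fusion against before, the number lower was 0 at 4-fold, and 1 gene (*Mbp*) was higher at 1.5-fold, where none was at 2-fold. For after over during fusion, 2 genes (*Sox10* and *Fabp7*) were lower with the hybridization controls and at 1.5-fold, 0 were lower at 4-fold, and 1 (*Foxd3*) was higher at 1.5-fold. The log2 ratio of *Sox10* for this comparison was -0.89 and became 0.16 with the median over probe sets, and that of *Foxd3* went from 0.75 to -0.07 with a floor at the median. Of 159 single-gene values under these alternatives, 147 moved by less than the SD between probe sets for that signal level and 12 by more, all values of *Ngfr*, *Mbp*, *Foxd3* or *Sox10*. Against the main scaling, the median log2 ratio of all genes moved by 0.28 with the signals as deposited and by -0.28 with the poly-A controls for during over before fusion, and by 0.18 and -0.38 for after over before. For after over during it moved by -0.10 with the signals as deposited, 0.14 with one median and -0.19 with the hybridization controls. For during over before it moved by -0.11 with one median. No paired analysis was possible because each stage has 1 array. Signals are least certain near the floor. By their brightest probe sets, *Sox10*, *Foxd3* and *S100b* were at most 3.44-fold over it on any array. *Fabp7* was 3.23-fold over it after fusion, and several other probe sets of *Ngfr*, *Sox10* and *Mbp* were near or under it.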
